A study of Mus musculus with 4 samples.

Results

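The cytosolic ribosomal protein genes encode the proteins of the small and large subunits of the ribosome that translates nuclear-encoded mRNA. They were taken as every gene whose symbol is Rpl or Rps followed by a digit, plus Rplp0, Rplp1, Rplp2 and Rpsa, without the genes of mitochondrial ribosomal proteins, the S6 kinases and the pseudogenes marked -ps. That gave 87 of the 28692 genes in the count matrices, 34 named for the small subunit and 53 for the large subunit. 9 of the 87 are paralogues or retrogene copies of another member. The rule also admitted Rps19bp1, whose product binds RPS19 and is not itself a ribosomal protein, and Rpl6l, which GENCODE vM21 types as a processed pseudogene.

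Each ribosome holds 1 copy of nearly every one of these proteins, and their mRNAs are among the most abundant of a cell. Most start with a terminal oligopyrimidine (TOP) tract, through which mTOR signalling controls their translation, and growth and activation of lymphocytes raise the production of ribosomes. A few members have paralogues with restricted expression, such as Rpl3l in muscle and Rpl10l in testis.

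Droplet 3′ RNA libraries were made from tumours of the B16-F10 melanoma line in C57BL/6 mice, with 1 library per group and 4 in all. Pmel-1 CD8 T cells, which carry a transgenic receptor for the melanocyte antigen gp100, were transferred on day 3 after implantation and recovered on day 14. Before transfer they were given a vector for IRF4 with GFP, or a control vector for GFP. The 4 groups were the transferred Pmel-1 cells of each arm and the endogenous CD45+ cells of each arm, so all tumours had received transferred cells. The sources used here do not say whether animals were pooled, and the protocol text speaks of a nuclear suspension although cells were sorted. With 1 library per group, differences between groups were not tested, and arm, animals, sort and library preparation cannot be told apart.

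The libraries held 715 barcodes in transferred IRF4, 3640 in transferred control, 6981 in the endogenous IRF4 arm and 6375 in the endogenous control arm. Filtering left 15132 of 17711 cells, at median depths of 8437 to 19963 unique molecular identifiers (UMIs) per cell. 26 barcodes occurred in more than 1 library. Irf4 RNA stood at 27.5 and 26.2 CPM (UMIs scaled to 1000000 per class and library) in CD8 T-like cells of the transferred IRF4 and control libraries. A vector transcript may end outside the mouse 3′ sequence, so Irf4 does not check those labels. Cells were put into classes by raw UMIs of marker genes, and a class is called "-like" for that reason. RNA of 3 haemoglobin genes differed by arm in every class, at 0 to 1.95 CPM in IRF4 libraries and 25.7 to 192 CPM in control libraries, and its part in the results was not tested.

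The members on which the comparisons turn include some of the shortest proteins of the ribosome and a pair of near copies, and their coding sequences are shown for that reason. They were read from GENCODE vM21 transcripts (GRCm38/mm10), with capitals marking the start and stop codons in the first 2 and, in Rps27l, the bases that differ from Rps27. Rps27rt, an intronless copy of Rps27 on chromosome 9, has the same coding sequence as Rps27 base for base. Rps27l has 61 differences among 255 bases, an identity of 76.1%.
Rpl41: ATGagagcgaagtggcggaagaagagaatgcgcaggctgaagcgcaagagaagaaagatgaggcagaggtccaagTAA
Rps28: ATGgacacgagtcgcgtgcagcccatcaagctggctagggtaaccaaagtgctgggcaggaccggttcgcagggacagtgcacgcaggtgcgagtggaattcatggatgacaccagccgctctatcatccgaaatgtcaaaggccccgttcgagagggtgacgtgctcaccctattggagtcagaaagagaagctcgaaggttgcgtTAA
Rps27: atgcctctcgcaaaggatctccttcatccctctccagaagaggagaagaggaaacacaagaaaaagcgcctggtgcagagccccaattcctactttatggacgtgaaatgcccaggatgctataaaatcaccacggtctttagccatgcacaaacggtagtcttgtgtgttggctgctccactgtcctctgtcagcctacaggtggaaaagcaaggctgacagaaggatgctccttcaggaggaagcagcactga
Rps27l: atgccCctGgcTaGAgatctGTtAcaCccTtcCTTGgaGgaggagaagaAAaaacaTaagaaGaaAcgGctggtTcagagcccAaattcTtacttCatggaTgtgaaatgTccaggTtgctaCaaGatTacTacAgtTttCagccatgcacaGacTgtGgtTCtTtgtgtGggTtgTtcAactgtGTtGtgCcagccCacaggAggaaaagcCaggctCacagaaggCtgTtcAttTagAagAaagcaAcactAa

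The promoter table from RefSeq (GRCm38.p6) held 66 of the 87 members, in 78 start windows. The 30 bases around the annotated start, 10 before it and 20 from it on, held a run of 8 or more C or T on the gene's strand in 30.8% of member windows and in 11.2% of all 32851 windows. The letters CTTTC on either strand were in 23.1% of member windows and 7.31% of all. Within the 300-base windows, the letters CCGGAAG, a motif of ETS factors, were in 34.6% and 8.86% on either strand. Members with high ratios between arms (Rpl38, Rps27, Rps28 and Rpl41) and with low ratios in endogenous cells (Rpl13a, Rps15 and Rpl5) are shown with the longest run of C and T in capitals. In order, their windows are at chr11:114668570-114668599 (plus strand), chr3:90213629-90213658 (minus), chr17:33824543-33824572 (minus), chr10:128549149-128549178 (minus), chr7:45128726-45128755 (minus), chr10:80292421-80292450 (plus) and chr5:107900518-107900547 (plus). The longest run has 10 bases in Rpl38, 9 in Rps27 and 14 in Rpl13a, but only 4 in Rps28 and 3 in Rpl41, Rps15 and Rpl5. Long and short runs thus occur among the shown members of either direction. Apart from Rps28, the RefSeq starts of these members differ from their gene starts in GENCODE vM21. The run lengths therefore hold for the RefSeq starts only, and a short run does not show that a member lacks a TOP tract. Rps29 and Rpl23a had no start window, and Rpl17 is not shown.
Rpl38: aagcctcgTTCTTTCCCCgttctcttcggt
Rps27: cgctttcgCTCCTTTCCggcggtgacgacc
Rps28: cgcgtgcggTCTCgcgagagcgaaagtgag
Rpl41: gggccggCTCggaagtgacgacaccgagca
Rpl13a: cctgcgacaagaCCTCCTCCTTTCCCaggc
Rps15: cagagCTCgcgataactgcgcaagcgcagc
Rpl5: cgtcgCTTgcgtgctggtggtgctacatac

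Members took very different shares of the RNA of different cell types. In neutrophil-like cells the median cell had 4.22% of its UMIs from members in the endogenous IRF4 arm and 4.65% in the control arm, the lowest of the 12 classes in both. Monocyte/macrophage-like cells had medians of 15.6% and 15.8%. Mature dendritic-like (15.3% and 17.5%), plasmacytoid dendritic-like (17.7% and 18.8%), Treg-like (18.9% and 19.9%), cDC1-like (19.3% and 20.5%) and cDC2-like cells (19.8% and 20.7%) came next, though mature dendritic-like cells lay slightly below the monocyte/macrophage-like cells in the IRF4 arm. NK-like cells had 23.3% and 22.5%, and B-like cells 26.8% and 28.8%. CD4 T-like cells had 25.2% and 32.4%, the widest gap between arms, and endogenous CD8 T-like cells 24.6% and 27.2%. Transferred CD8 T-like cells had 30.4% in the IRF4 and 32.8% in the control library. The myeloid and dendritic classes thus lay below the B-like, NK-like, CD4 T-like and CD8 T-like classes in both arms, and Treg-like cells lay with the dendritic classes. Mast or basophil-like cells, 29 and 34 in number, had 19.4% and 19.7%. The neutrophil-like cells numbered 36 and 82, and in the control arm their summed share, 8.76%, was above that of the median cell. Free RNA in the droplets was not measured here.

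**Figure D1:**
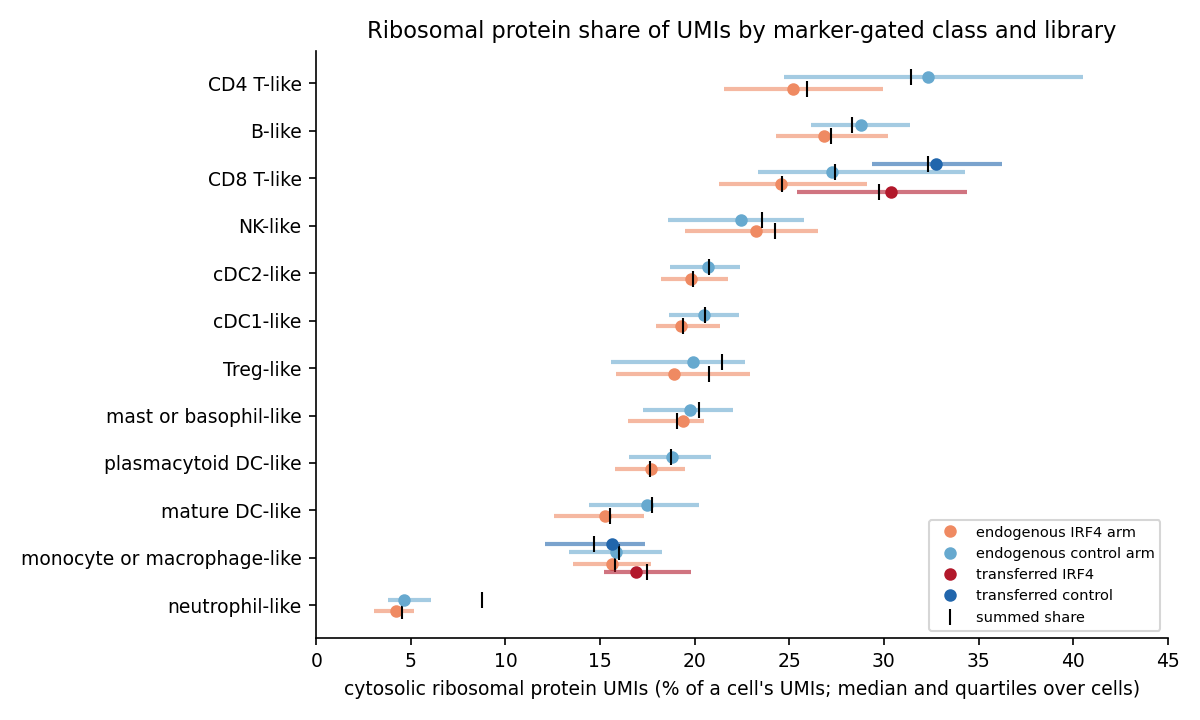
Ribosomal protein UMIs as a percentage of all UMIs of a cell (horizontal axis) for each marker-gated class, with dots for the median cell, bars for the quartiles over cells and black ticks for the share in summed UMIs. Neutrophil-like cells lie lowest, at 4.22% and 4.65%, and transferred CD8 T-like cells of the control library at 32.8%.

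74 of the 87 members stood at 1000 CPM or more over all kept cells and 13 below. The 8 most abundant were Rps24, Rpl13, Rpsa, Rps15a, Rpl32, Rpl23, Rplp0 and Rps2, from 6355 CPM for Rps24 to 4958 CPM for Rps2. These are levels per 3′ tag, 1 per molecule, and so were not divided by length. Rpl10l had 0 UMIs in all kept cells, which allows up to 0.184 CPM in the shallowest library and 0.033 CPM in the deepest. Rpl3l had 163 UMIs in all kept cells and its highest level in a class, 6.11 CPM from 5 UMIs, in mature dendritic-like cells of the endogenous IRF4 arm. Rpl39l, a paralogue of Rpl39 known from testis, had 12.2 CPM there from 10 UMIs.

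Transferred CD8 T-like cells had less ribosomal protein RNA in the IRF4 library than in the control library, while a handful of short members were more abundant. Members made up 29.7% of 12403631 UMIs in the IRF4 library (95% exact interval 29.7 to 29.8) and 32.3% of 58607579 UMIs in the control library (32.3 to 32.4). The ratio of shares was 0.919 (0.918 to 0.92), and this and all later intervals cover counting error only. Small subunit members had a ratio of summed CPM of 0.909 and large subunit members of 0.928. Of 84 members that reached 10 CPM in at least 1 of the libraries, 61 were below a log2 ratio of 0 and 23 above. Rpl3l, Rpl10l and Rpl39l did not reach that level. The difference was not seen at every depth. In cells under 6000 UMIs the shares were 29.7% (33 cells) and 29.4% (201 cells), and in cells of 6000 to 12000 UMIs 28.3% and 33.3%. From 12000 to 24000 they were 31.1% and 34.4%, and above that 29.6% and 31.9%. Summed RNA of the 8 monocyte and macrophage markers was 49.8 CPM in the IRF4 and 127 CPM in the control CD8 T-like cells, and its part was not tested. The median log2 ratio of the 84 members was -0.16, beside 0.011 for all 7438 measured genes and 0.092 for 177 other genes at 500 CPM or more.

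At a ratio of 1.2, 15 members were lower and 5 higher. Of all measured genes, 12.2% were lower and 13.5% higher by that ratio. Of the other genes at 500 CPM or more, 2.26% were lower and 23.7% higher. No test of the members against these genes was made. In cells of 5000 to 20000 UMIs 33 members were lower, and without the 6% deepest cells of each library 9 were. At a ratio of 1.5, 2 members were higher and 0 lower, beside 3.39% higher and 2.68% lower of all measured genes and 6.78% and 1.13% of the other abundant ones.

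The 5 higher members were all short. Rps29, a zinc-binding protein of the small subunit with 56 codons, stood at 5186 CPM in the IRF4 library and 2941 CPM in the control library, a ratio of 1.76 (1.75 to 1.78). Rps28, also of the small subunit, stood at 2701 and 1584 CPM, a ratio of 1.71 (1.68 to 1.73). Rpl38, a large subunit protein known for its part in the translation of Hox mRNAs, stood at 3318 and 2282 CPM (1.45, 1.44 to 1.47). These 3 had log2 ratios of 0.82, 0.77 and 0.54, and the lowest value of any of them over 14 alternative settings was 0.502, for Rpl38. Rps27, with a zinc finger, stood at 3858 and 2819 CPM, a ratio of 1.37 (1.36 to 1.38). Rpl41, a basic peptide of only 25 codons, stood at 8364 and 6735 CPM, a ratio of 1.24 (1.23 to 1.25), and was the most abundant member in the IRF4 library. Rps21 (1.18), Rpl37a (1.12) and Rpl39 (1.09) came next in order and did not reach 1.2.

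The lower members were spread over both subunits and lay within a narrow range. Rps24 was lowest, at 6377 CPM in the IRF4 library and 8165 CPM in the control library, a ratio of 0.781 (0.775 to 0.787). Rps27a, which is made as a fusion with ubiquitin, stood at 4741 and 5990 CPM (0.791). Rps7 (0.806), Rps18 (0.813), Rpl15 (0.814), Rpl9 (0.818), Rps10 (0.819) and Rpl13 (0.82) followed. The remaining 7 of the 15 had ratios between these and 0.833, the limit of the call. The stalk proteins, which recruit the elongation factors, had ratios of 0.879 for Rplp0, 0.888 for Rplp1 and 0.93 for Rplp2. Rpsa, the laminin receptor protein of the small subunit, had 0.866. Rps6, the substrate of the S6 kinases, was nearly level at 2183 and 2162 CPM, a ratio of 1.01 (0.997 to 1.02), and its sign varied between alternatives.

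The ratio went with coding length among members. The 6 measured members of at most 250 coding nucleotides (Rpl41, Rpl39, Rps29, Rps28, Rpl38 and Rps21) had a median log2 ratio of 0.43, and 6 of 6 were above 0. Rps21 lies just inside that limit at 249 nucleotides, with a log2 ratio of 0.24, and Rps27, Rps27l and Rps27rt just outside at 252, with 0.45, 0.075 and 0.041. The 34 members of up to 450 nucleotides had a median of -0.11, the 27 of up to 700 had -0.23, and the 14 longer ones -0.18. Other genes of at most 250 coding nucleotides at 100 CPM or more had a median of 0.12, with 41 of 57 above 0, a smaller median than that of the short members. Spearman's rho between ratio and coding length was -0.44 over 81 members and -0.038 over 1196 other genes. Between the endogenous arms other genes had a negative rho too, except in monocyte/macrophage-like cells. In CD8 T-like cells rho was -0.23 for members and -0.26 for other genes, in B-like cells -0.24 and -0.28, in NK-like cells -0.38 and -0.31, in CD4 T-like cells -0.30 and -0.21, and in monocyte/macrophage-like cells -0.31 and 0.041. These points share both libraries and are not independent, and the length limits were set after the values had been seen.

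**Figure D2:**
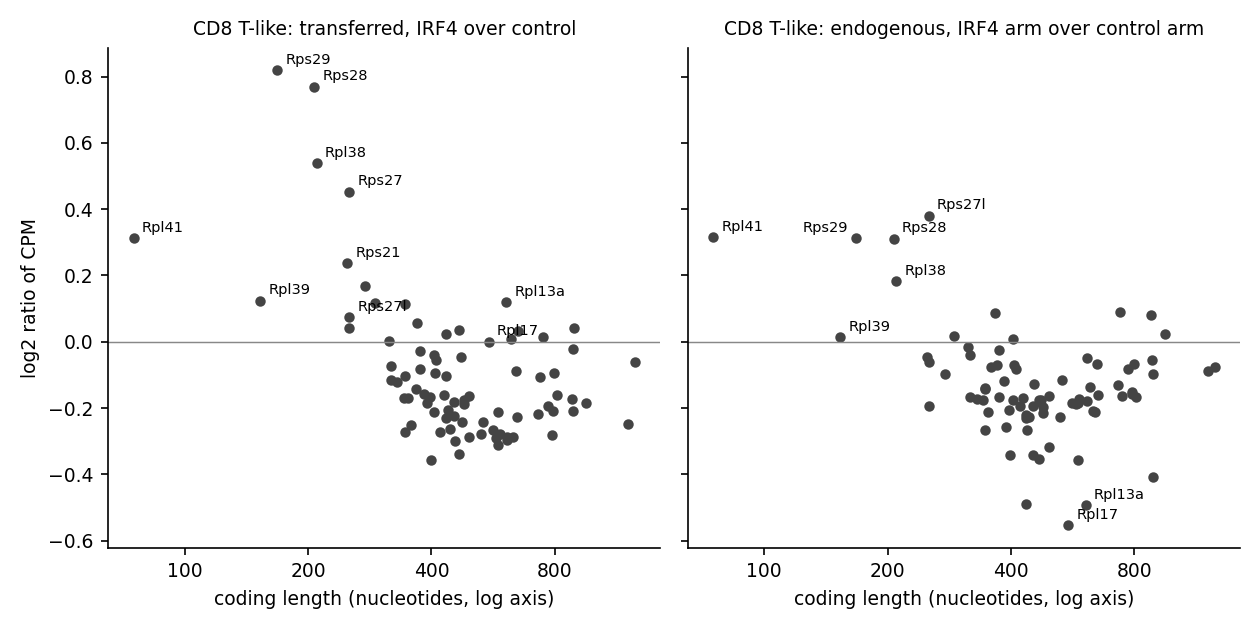
Log2 ratio of CPM of each member (vertical axis) against coding length in nucleotides (horizontal log axis), in transferred CD8 T-like cells (left) and endogenous CD8 T-like cells (right). Rps29, Rps28, Rpl38, Rpl41 and Rps27 stand apart from the longer members on the left, and Rpl17 and Rpl13a lie lowest on the right.

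The 5 higher members were also looked at in the few other cells of the transferred libraries. Among 19 monocyte/macrophage-like cells of the transferred IRF4 library and 46 of the control library, Rps29 stood at 4738 and 2041 CPM. Its share of all member UMIs there was 2.71% (2.54 to 2.89) and 1.39% (1.31 to 1.48). In the CD8 T-like cells that share was 1.74% and 0.909%. In the monocyte/macrophage-like cells Rps28 stood at 1933 and 937 CPM, Rpl38 at 2333 and 1266, Rps27 at 2863 and 1416, and Rpl41 at 4411 and 3069. All 5 were thus higher with IRF4 here too, after being picked as the highest in CD8 T-like cells. Members as a whole were also higher in these monocyte/macrophage-like cells, at 17.5% of UMIs (IRF4) against 14.7% (control). The member share of CD8 T-like cells differed in the opposite direction. Apart from Rps29, the 5 are given here as CPM only, which does not take out this difference of the whole group. How many other members or genes were higher is not given here, and the part of free RNA was not tested.

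Endogenous CD8 T-like cells also had a lower ribosomal protein share in the IRF4 arm, at 24.6% of 33297912 UMIs against 27.4% of 9210819 UMIs, a ratio of 0.899 (0.898 to 0.90). RNA of other cell types differed between the arms in these cells. Monocyte and macrophage markers summed to 75.02 and 157 CPM, cDC2 markers to 5.08 and 41.4, mature dendritic markers to 20.2 and 73.1, and plasmacytoid dendritic markers to 1.86 and 16.9, and their part was not tested. Of 84 measured members 72 were below 0, with a median log2 ratio of -0.16, beside 0.017 for all 7622 measured genes and 0.15 for 211 other genes at 500 CPM or more. At a ratio of 1.2, 12 were lower and 4 higher. Of all measured genes, 15.7% were lower and 15.7% higher, and of the other abundant genes 9.48% and 26.1%. Among cells without a UMI of 5 cycle genes, 7 members were lower by 1.2 and the log2 ratio of shares was -0.098 instead of -0.15.

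The higher members were Rps27l (401 and 308 CPM, ratio 1.30), Rpl41 (4664 and 3746 CPM, 1.24), Rps29 (2553 and 2055 CPM, 1.24) and Rps28 (1176 and 947 CPM, 1.24). 3 of these 4 were also among the 5 higher members of transferred cells. The share of all measured genes higher in both comparisons is not given here, so this overlap is not read as particular to members. The lowest were Rpl17 (3092 and 4537 CPM, 0.682), Rpl13a (3101 and 4364 CPM, 0.711), Rps15 (1242 and 1743 CPM, 0.712), Rpl5 (1466 and 1944 CPM, 0.754) and Rps7 (3697 and 4733 CPM, 0.781). Rpl17 and Rpl13a belong to the large subunit, Rps15 to the head of the small subunit, and Rpl5 carries the small ribosomal RNA of the large subunit and can bind Mdm2. In transferred cells the first 4 of these were near level, at 2884 and 2884 CPM for Rpl17, and with ratios of 1.09 for Rpl13a, 1.02 for Rps15 and 1.03 for Rpl5. The sign of these 4 varied between alternatives. Over 81 members the log2 ratios of transferred and endogenous cells, which come from separate libraries, had a Spearman's rho of 0.35 and a Pearson's r of 0.51.

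**Figure D3:**
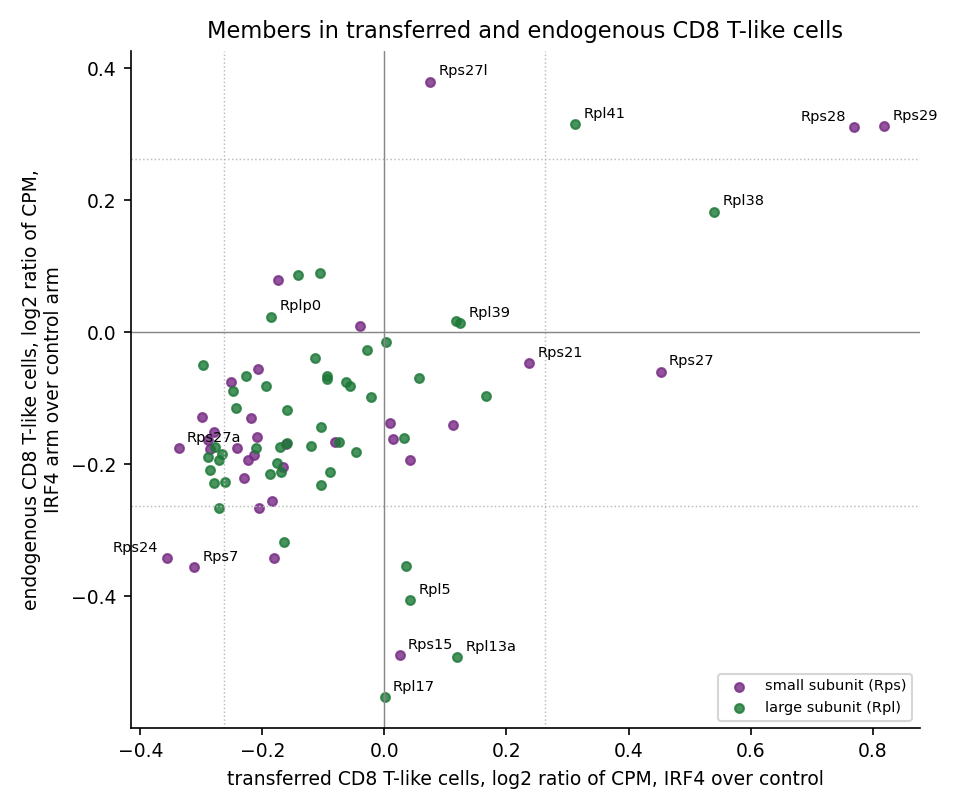
Log2 ratio of CPM of each member at 50 CPM or more between arms in transferred (horizontal axis) and endogenous (vertical axis) CD8 T-like cells, coloured by subunit, with dotted lines at a ratio of 1.2 either way. Rps28, Rps29, Rpl38 and Rpl41 are above 0 on both axes, while Rpl17, Rpl13a, Rps15 and Rpl5 are low on the vertical axis only.

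Most of the lowest members of endogenous CD8 T-like cells were low in the other larger classes as well. Rps15, Rpl13a, Rpl5, Rpl23a and Rpl17 were lower by at least 1.2 in the IRF4 arm in all 5 classes with 100 or more cells in both libraries (CD8 T-like, CD4 T-like, NK-like, B-like and monocyte/macrophage-like), 5 of 83 members measured in all of them. With median-of-ratios scaling 4 members were lower by 1.2 in all 5. Of 5853 genes measured in all 5 classes, 0.342% were lower in all. The share among other genes at 500 CPM or more is not given for this count. In B-like cells Rps15 stood at 1163 CPM and 1979 CPM in the IRF4 and control arms, Rpl13a at 3174 and 4536, Rpl5 at 1346 and 1804, Rpl23a, a protein of the peptide exit, at 524 and 789.8, and Rpl17 at 3607 and 5138. In monocyte/macrophage-like cells Rps15 stood at 747 and 1082 CPM. No member was higher by 1.2 in all 5 classes, where 0.325% of genes were.

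Counting the 10 endogenous classes with at least 40 cells in both libraries, 16 members were below 0 in all 10 and 5 above 0 in all 10, of 83 measured in each. Of 5199 genes measured in each, 1.17% were below and 1.67% above in all 10, and of 69 other genes at 500 CPM or more 5.8% and 14.5%. The 5 members above 0 were Rps29 (log2 ratios from 0.052 to 0.53), Rps28 (0.20 to 0.53), Rpl38 (0.10 to 0.37), Rpl41 (0.0059 to 0.33) and Rpl22l1. In CD4 T-like cells the ratio of Rps29 was -0.059 with median-of-ratios scaling, and it was above 0 in 12 of 14 alternatives. Rpl22l1, the paralogue of the T cell development factor Rpl22, was not among the higher members of transferred cells (1167 and 1287 CPM). A pattern found in every class of a library goes with the library as well as with the arm, and these cannot be told apart.

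**Figure D4:**
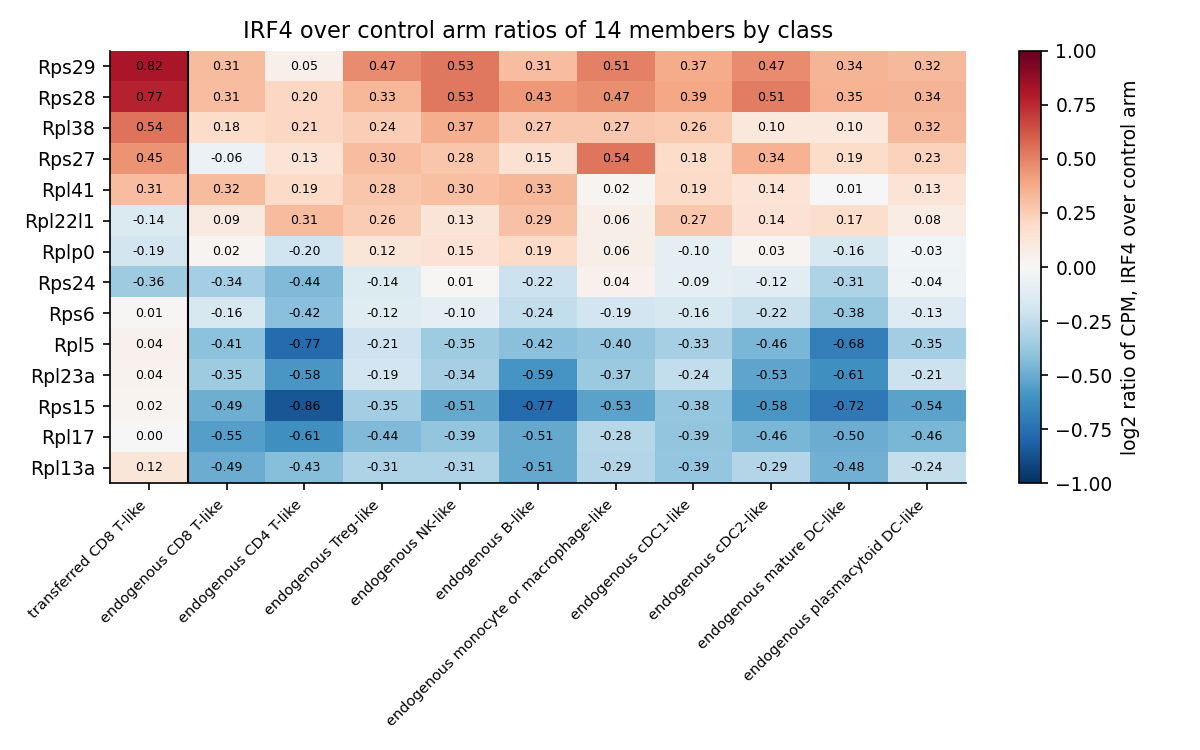
Log2 ratio of CPM between arms of 14 members (rows) in transferred CD8 T-like cells and 10 endogenous classes (columns), coloured red where higher and blue where lower in the IRF4 arm. Rps29, Rps28, Rpl38 and Rpl41 are above 0 in every column (for Rpl41 by 0.0059 in mature dendritic-like cells), and Rpl5, Rpl23a, Rps15, Rpl17 and Rpl13a are blue in the 10 endogenous columns but not in the transferred one.

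The other endogenous classes differed in how the whole group stood. In CD4 T-like cells the share was 25.9% against 31.4%, a ratio of 0.825 (0.821 to 0.828), and 45 of 84 members were lower by 1.2 and 2 higher, where 18.3% of measured genes were lower and 33% higher, and of the other abundant genes 6.78% and 37.3%. The number lower was 21 at no more than 5% mitochondrial UMIs and 62 with median-of-ratios scaling, and the log2 ratio of shares, -0.28, ranged from -0.39 to -0.14 over the alternatives. Rps15 was lowest there, at 1146 and 2077 CPM (0.552), followed by Rpl5 (0.587), Rpl17 (0.653), Rpl23a (0.668) and Rpl10 (0.703), a late-joining large subunit protein. In NK-like cells the share was slightly higher in the IRF4 arm, 24.3% against 23.5% (ratio 1.03), with 5 members higher and 5 lower, beside 10.8% and 18.5% of genes and 8.24% and 5.49% of the other abundant genes. Rps28 (1184 and 820 CPM) and Rps29 (3097 and 2147 CPM) had the highest ratios there, both 1.44. In B-like cells 6 members were higher and 7 lower, beside 29.1% and 26.7% of genes and 22.6% and 10.3% of the abundant ones. In monocyte/macrophage-like cells 5 were higher and 11 lower, beside 16.6% and 20.3% of genes and 25.5% and 20.5% of the abundant ones, with Rps27 highest at 1751 and 1205 CPM (1.45) and Rpl12 (0.764), a protein of the stalk base, among the lowest.

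Over all depths together, transferred CD8 T-like cells had a higher ribosomal protein share than endogenous CD8 T-like cells of the same arm. The ratio of shares was 1.18 (1.179 to 1.182) in the control arm and 1.207 (1.206 to 1.209) in the IRF4 arm. Of 84 members, 37 were higher by 1.2 and 4 lower in the control arm, beside 19% and 30.9% of measured genes and 20.2% and 40.9% of the other abundant genes. In the IRF4 arm 36 were higher and 1 lower, beside 16.6% and 28.1% of measured and 13.2% and 38.2% of abundant genes. The highest in the control arm were Rpl41 (6735 and 3746 CPM, 1.80), Rps28 (1.67), Rpl36 (1.62), Rpl35 (1.58) and Rpl15 (1.57). The highest in the IRF4 arm were Rps28 (2701 and 1176 CPM, 2.30), Rps29 (2.03), Rpl41 (1.79), Rpl37a (1.73) and Rpl38 (1.72). Rpl13a was lowest in both, at 2280 and 4364 CPM in the control arm (0.523) and 2476 and 3101 CPM in the IRF4 arm (0.798). Rpl17 was next in both, with ratios of 0.636 and 0.933. Among cells without cycle UMIs the log2 ratios of shares were 0.103 and 0.113 instead of 0.24 and 0.27. The higher share was not seen at every depth. In the control arm the transferred and endogenous shares were 29.4% and 30.4% under 6000 UMIs, and 33.3% and 30.7% from 6000 to 12000. From 12000 to 24000 they were 34.4% and 27.9%, and above that 31.9% and 24.6%. In the IRF4 arm they were 29.7% and 26.6%, 28.3% and 28.7%, 31.1% and 23.1%, and 29.6% and 23.8% in the same bands. The cells also came through different sort gates.

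Genes that make or accompany ribosomes did not all follow the members. Between arms in transferred cells, 13.5% of all measured genes were higher and 12.2% lower by 1.2. Of 23 TOP-type translation factors, 0 were higher and 1 lower by 1.2 in transferred cells between arms (Eif4a2, an RNA helicase, 126 and 164 CPM). Their median log2 ratio was -0.056, with Ybx1 and Eif2s3x highest and Eif4a2 and Eef1b2 lowest. 8 of 32 ribosome biogenesis genes were lower and 0 higher, at a median of -0.14. Nop10, a box H/ACA component, was lowest at 293 and 382 CPM, then Wdr12 at 53.9 and 68.9 CPM, while nucleolin (Ncl) stood at 1354 and 1238 CPM and Nop58 at 254 and 228 CPM. Of 76 measured mitochondrial ribosomal protein genes, 2 were higher and 0 lower, at a median of 0.0086. Mrps18c (95.1 and 76.7 CPM) and Mrpl18 (207 and 169 CPM) were highest, and Mrpl50 and Mrpl24 lowest. Of 15 measured growth control genes 1 was higher (Akt1, 77.4 and 60.7 CPM) and 2 lower, Myc (61.5 and 94.2 CPM) and Rptor (9.84 and 14.02 CPM), with Rps6ka1 (40 and 33.8 CPM) second highest. With so few genes, the growth control counts were not read as a difference from all measured genes.

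Between transferred and endogenous CD8 T-like cells, biogenesis genes had higher median ratios than the ribosomal proteins. In the control arm 28 of 32 were higher by 1.2 in transferred cells and 0 lower, with a median log2 ratio of 0.64 beside 0.23 for members. In the IRF4 arm 24 were higher and 0 lower (median 0.45, beside 0.24 for members). Of all measured genes, 19% were higher and 30.9% lower in the control arm, and 16.6% and 28.1% in the IRF4 arm. Mitochondrial ribosomal protein genes had medians of 0.25 and 0.11. In monocyte/macrophage-like cells between endogenous arms, 19 of 30 measured biogenesis genes were lower and 0 higher (median -0.38). Of all measured genes there, 20.3% were lower and 16.6% higher. The member share had a ratio of 0.985 in these cells, whose sign on the log2 scale varied between alternatives.

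The make-up of the ribosomal protein RNA was compared between endogenous cell types within each library. For most members the highest of the 5 larger classes differed little from the lowest, with a median ratio of 1.27 over 82 members (the smaller of the 2 libraries' ratios). Rps27l, which p53 induces, varied most. Its share of member UMIs was 0.199% and 0.245% in monocyte/macrophage-like cells and 0.043% and 0.0309% in B-like cells of the IRF4 and control arms, a range of 4.64-fold and 7.92-fold. Over the alternatives these ranges ran from 3.48-fold to 7.16-fold and from 5.10-fold to 8.08-fold. Its highest level was outside those classes, in mature dendritic-like cells, at 1854 and 1353 CPM, while cDC1-like cells had 448 and 427 CPM and cDC2-like cells 306 and 382 CPM. These came from 53 and 76 mature dendritic-like cells.

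Its parent Rps27 was highest where Rps27l was lowest. Rps27 made up 2.27% and 1.96% of member UMIs in B-like cells, and its lowest share was 0.971% in CD8 T-like cells of the IRF4 library and 0.752% in monocyte/macrophage-like cells of the control library. Rps27rt was likewise highest in B-like cells, with a range of 2.24-fold and 3.16-fold and with 542 and 618 CPM in B-like cells and 154 and 111 CPM in monocyte/macrophage-like cells. Of 90-base windows in the last 300 bases of the Rps27rt transcript, 86.3% also occur in Rps27 transcripts. Of those of the Rps27 transcript, 100% occur in Rps27rt transcripts. How the counts were divided between the 2 is thus uncertain, in this and every other comparison that names either. All such windows of Rpl6l occur in Rpl6, and 0 windows were shared by the other 7 pairs.

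Rpl7l1, which is known from ribosome assembly, had a range of 2.74-fold and 3.33-fold, from monocyte/macrophage-like down to CD4 T-like cells, at no more than 82.5 CPM in the 5 classes of the IRF4 arm. Rpl36al, Rpl10, Rpl12, Rps2 and Rpl13a were also among the 10 members that varied most, with ranges of 1.83-fold to 2.13-fold in the 2 libraries, apart from Rpl10, which had 2.27-fold in the IRF4 arm. Rpl10 and Rpl36al were highest in monocyte/macrophage-like cells, and Rpl12 and Rpl13a highest in CD4 T-like cells, in both libraries. Rpl36al stood at 959 and 927 CPM in monocyte/macrophage-like cells, above its parent Rpl36a at 685 and 803 CPM, and below it in B-like cells, at 838 and 772 against 1481 and 1489 CPM. Rpl22l1 stood below Rpl22 in every class, for example at 1008 and 1686 CPM in CD8 T-like cells of the endogenous IRF4 arm. Rpl10l, Rpl3l and Rpl39l made up next to nothing beside Rpl10, Rpl3 and Rpl39 (for example 0, 0 and 1.61 CPM beside 2670, 3561 and 6045 CPM in transferred IRF4 cells), and Rpl6l had 13.7 CPM there beside 2750 CPM of Rpl6.

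Within CD8 T-like cells the ribosomal protein share was compared between ranges of state genes. Each cell was thinned to 2000 UMIs and put in a range by UMIs of 5 cycle genes, of Gzmb (granzyme B), and of the stem-like and memory genes Tcf7 and Il7r. Cells with only stem-like genes had shares of 34.3% in transferred IRF4, 34.6% in transferred control, 32.7% in the endogenous IRF4 arm and 36.0% in the endogenous control arm. Cells with Gzmb only had 26.1%, 29.6%, 23.6% and 24.5%. The stem-like cells were higher by 8.28, 5.004, 9.12 and 11.6 percentage points in the same order, so in 4 of 4 libraries. Cycling cells lay between or near the Gzmb cells, at 28.1%, 30.8%, 22.8% and 25.2%. Cells with neither set of genes had 33.5%, 33.8%, 28.0% and 28.7%, so in transferred cells they were close to the stem-like cells. Cells with both had 27.9%, 31.2%, 26.5% and 25.4%. Unthinned shares were 34.8%, 34.7%, 33.1% and 35.8% for stem-like cells and 27.6%, 31.6%, 24.0% and 24.96% for Gzmb cells, and the gaps were then 7.14, 3.06, 9.09 and 10.9 points. The median depth before thinning was 9861, 12026, 6826 and 7039 UMIs for stem-like and 10719, 18649, 9381 and 9745 UMIs for Gzmb cells. Many cells stand on a single UMI, 55 of 91 stem-like and 28 of 86 Gzmb cells in transferred IRF4, so these are ranges and not types.

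Between arms, the transferred libraries were nearly level in stem-like cells (34.3% and 34.6%) and apart in Gzmb cells (26.1% and 29.6%) and cycling cells (28.1% and 30.8%). The endogenous libraries were apart in stem-like cells (32.7% and 36.0%) and closer in Gzmb cells (23.6% and 24.5%). Stem-like cells numbered 91 of 470 in the IRF4 library and 635 of 1989 in the control library, and cycling cells 191 and 586. Whether the states differ in this respect was not tested. The cells fell into these ranges by genes that are not members.

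**Figure D5:**
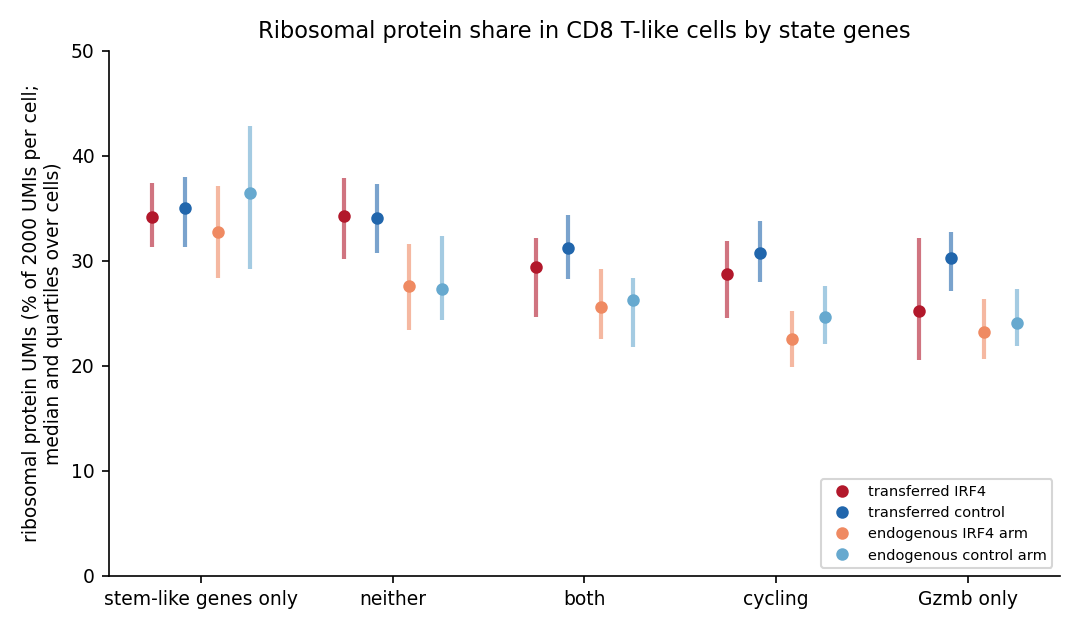
Ribosomal protein UMIs as a percentage of 2000 UMIs per cell (vertical axis) in CD8 T-like cells by state genes (horizontal axis), with dots for the median and bars for the quartiles over cells in each of the 4 libraries. Cells with stem-like genes only lie above cells with Gzmb only in 4 of 4 libraries, by 5.004 to 11.6 points in summed share.

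Of 84 members measured in both ranges, 62 were above 0 in stem-like over Gzmb cells in all 4 libraries, beside 16% of 6823 measured genes and 19% of 142 other genes at 500 CPM or more. 8 were higher by 1.2 in all 4, among them Rps27rt, Rps27, Rpl12, Rps19, Rplp1, Rps7 and Rpl39. Of all measured genes 5.55% were, and of the other genes at 500 CPM or more 5.63%. Rps27 had log2 ratios of 0.56, 0.34, 1.09 and 1.07 in transferred IRF4, transferred control, endogenous IRF4 and endogenous control cells, and Rpl12 had 0.50, 0.27, 0.82 and 1.02. Rps27l was the only member lower by 1.2 in all 4, at -0.86, -0.57, -1.13 and -1.09, where 9.97% of genes and 17.6% of the abundant ones were. Rps27 and Rps27l thus differed in opposite directions between these ranges, as they did between monocyte/macrophage-like and B-like cells. Rps19bp1 and Rpl7l1 were also below 0 in all 4 libraries.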

How the data were processed

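UMIs per gene and barcode were analysed in 4 single-cell libraries, 1 per group, with groups taken from the labels. The authors deposited raw whole-number counts. The submitters' processing notes name Cell Ranger 3.0.2, STAR 2.6 and the mm10 build, while the gene annotation and the treatment of reads that match several genes are not given in the sources used here.

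Barcodes were kept with at least 1000 UMIs, 500 genes and at most 10% mitochondrial UMIs. Classes were gated on raw UMIs of fixed markers, with thresholds set after marker levels had been seen: 11704 cells had a class, 1363 with markers of several classes or with haemoglobin or melanoma RNA were left out as mixed, which stood in for a doublet caller, and 2065 had none. Each class had at least 1 of its markers among its 10 leading genes in the endogenous control arm. The gates used these same markers, so this does not check the classes. For the stem-like range 1 of the planned marker genes was left out after the data had been seen, and some items are not reported here. UMIs were summed per class and library and scaled to CPM. Ratios have exact conditional binomial and shares exact Clopper-Pearson intervals at 95%. Log2 ratios used a pseudocount of 1 CPM. A gene counted as measured from 10 CPM on, in at least 1 of the libraries compared. Intervals were tested on data simulated with counting error alone, which leaves out variation between cells, animals and libraries. Python 3.11.15, numpy 2.4.6, scipy 1.17.1, pandas 2.3.3 and matplotlib 3.10.9 were used.

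Members, lists and the naming rule were chosen with earlier results of these data known. Names were drawn from the 8 most abundant members, the 8 highest and lowest ratios between transferred libraries and 5 in each other comparison. They were also drawn from the 10 that varied most between classes and the 2 highest and lowest of each other list. Paralogues, stalk proteins, Rpsa, Rps6, Rpl41 and near-absent members were included too. Not all of these are named in every comparison. Lengths and coordinates come from GENCODE vM21 and promoters from RefSeq. Alternatives covered filters, gates, scaling, depth, cycling and barcodes shared between libraries.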

Additional observations from a re-analysis of the deposited data

Results flagged for a closer look

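Rps27l had ratios of opposite direction in a pair of endogenous cell types, which did not hold under all alternatives. Its log2 ratio of the IRF4 over the control arm was 0.41 in B-like cells (116.9 and 87.5 CPM) and -0.32 in monocyte/macrophage-like cells (315 and 392 CPM). The interval of the B-like ratio reached below 1 (0.976 to 1.81), and the difference between the classes was not tested. The B-like value turned to -0.16 with cells weighted equally and to -0.11 without cycling cells, and the highest of the alternatives in monocyte/macrophage-like cells was -0.0018.

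Rps19bp1, which is not a ribosomal protein, had a log2 ratio of 0.38 in CD4 T-like cells (26.9 and 20.4 CPM) and -0.64 in B-like cells (19.5 and 30.8 CPM). These are low levels, and this difference was not tested either.

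The 16 ribosomal protein pseudogenes that the rule leaves out had UMIs in all 4 libraries, at 301 CPM in transferred IRF4, 321.9 CPM in transferred control, 242 CPM in the endogenous IRF4 arm and 250 CPM in the endogenous control arm. The limit that a count of 0 allows is 0.033 to 0.184 CPM.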

How the results depend on the processing

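No paired analysis was possible because each group has 1 library. The processing was varied for 4 log2 ratios of member shares in CD8 T-like cells. These were transferred IRF4 over control, endogenous IRF4 over control, transferred over endogenous in the control arm and transferred over endogenous in the IRF4 arm. Each kept its sign under all alternatives run, but all except the second changed direction in a band of depth. In that order they were -0.126, -0.105, 0.31 and 0.29 at no more than 5% mitochondrial UMIs, -0.15, -0.127, 0.29 and 0.268 with gates on thinned cells, -0.132, -0.18, 0.158 and 0.21 with every cell weighted equally, -0.136, -0.179, 0.307 and 0.33 with median-of-ratios scaling, -0.17, -0.20, 0.177 and 0.207 in cells of 5000 to 20000 UMIs, -0.106, -0.18, 0.197 and 0.274 without the 6% deepest cells, and -0.088, -0.098, 0.103 and 0.113 without cycling cells. Without mitochondrial UMIs in the total the first was -0.126 and the third 0.242. With haemoglobin-rich and melanoma-rich cells kept, an alternative chosen after seeing the data, the second was -0.152 and the third 0.242. Members lower by 1.2 in transferred cells numbered 33 in cells of 5000 to 20000 UMIs and 9 without the deepest cells, beside 15, and in endogenous CD8 T-like cells 7 without cycling cells, beside 12. The smallest gap between stem-like and Gzmb cells was 6.29 points in cells of 5000 to 20000 UMIs and 4.67 points with cells thinned to 5000 UMIs, beside 5.004, and 3.06 points without thinning. Rps27l in B-like cells turned to -0.16 with cells weighted equally and to -0.11 without cycling cells. The cause of these shifts was not tested. Counting error is small at these depths, so the single library per group limits the comparisons.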
